A study of Homo sapiens with 10 samples.

Results

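The genes described here are 40 that encode lysosomal enzymes, their activators and lysosomal membrane proteins, together with the factors that control their transcription. They were chosen by name as a list of known lysosomal genes and not by a rule on measured values, but with earlier results of these data known. All 40 were among the 34567 genes of the count table, and all 40 were among the 17312 genes whose counts were high enough to be tested. They fall into 15 hydrolases of sugar chains and glycosaminoglycans, 7 proteins of lipid breakdown, 6 proteases, partners and proteins of lipofuscin storage disease, 5 membrane proteins, 4 subunits or partners of the proton pump, and 3 proteins of lysosomal transcription and autophagy (TFEB, TFE3 and SQSTM1).

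The samples were 10 RNA-seq libraries of SNB19 and U87, established human glioblastoma cell lines in which MEOX2, a homeobox transcription factor, was lowered or raised. SNB19 cells were transfected with Scramble siRNA (3 samples) or with MEOX2 siRNA (3 samples), so that the knockdown was transient. U87 cells carried a lentiviral empty vector (2 samples) or a lentivirus for MEOX2 overexpression (2 samples), were kept as stable lines under puromycin, and are therefore a model in which MEOX2 is driven by a vector in cells with no MEOX2 reads. The comparisons ask which lysosomal genes change when MEOX2 falls in a line that expresses it, which change when it is added to a line that does not, and whether the responses match.

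Lysosomes are the acidic compartments in which cells take apart proteins, lipids, glycans and whole organelles. Soluble hydrolases are tagged with mannose 6-phosphate in the Golgi and delivered to the lysosome, a V-type ATPase pumps in the protons the enzymes need, and heavily glycosylated membrane proteins line the limiting membrane. Inherited loss of single enzymes causes the lysosomal storage diseases, many of which damage the brain. TFEB and TFE3, transcription factors of the MiT/TFE family, bind E-boxes with the core CACGTG in the promoters of many lysosomal and autophagy genes and are held in the cytoplasm by mTORC1 signalling at the lysosomal surface.

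MEOX2 itself followed the group labels in every sample. On the scale of normalised CPM (counts relative to a library size that was scaled with the TMM method), MEOX2 was 14.4, 15.5 and 16.7 in the scramble samples and 3.13, 2.47 and 3.07 in the MEOX2 siRNA samples, a 5.36-fold lower level (log2 fold change -2.42 ± 0.15 SE, adjusted p = 0.000119, edgeR quasi-likelihood test with Benjamini-Hochberg adjustment). No read was counted for MEOX2 in either empty vector sample, and the overexpressing samples were at 414 and 382 CPM, at least 1430-fold higher than the floor of 3 counts per library allows. Total counts ran from 12533775 to 16560324 per library. U87 empty vector replicate 1 stood apart: its TMM factor was 0.695 where the other 9 libraries had 0.9501 to 1.13, its 50 most abundant genes took 19.4% of the counts where they took 12.02% to 13.96% elsewhere, and against replicate 2 its genes with models under 2000 bases were higher by a median of 0.63 on the log2 scale and those over 8000 bases lower by 0.68. The counts of called genes in U87, and those between the control lines, are therefore also given without it. Of 12 astrocyte and glioma markers, 6 exceeded a mean of 1 FPKM in scramble SNB19 and 5 in empty vector U87, with VIM, CD44, OLIG2 and SLC1A3 among them and GFAP below 1 FPKM in both. Their summed level was 231 to 233 FPKM in scramble samples and 122 to 126 in MEOX2 siRNA samples, and 327 to 753 in empty vector and 195 to 197 in overexpressing samples. Of 11 measured microglia and macrophage markers only CSF1R exceeded 1 FPKM, and the summed level was at most 5.56 FPKM in any library, with C1QA at 0 in both SNB19 groups and in empty vector U87. The part of either marker set in the results below was not tested.

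The lysosomal genes were well expressed in the control cells of both lines. FPKM, which divides by gene model length and total count and so allows genes to be compared with each other, had a median of 15.2 over the 40 genes in scramble SNB19 (3.36 over all genes tested) and 14.1 in empty vector U87 (2.59 over all genes tested). PSAP, which encodes prosaposin, the precursor of the saposins that present sphingolipids to their hydrolases, was the highest of the 40 in both lines, at 595 ± 6.63 FPKM (SD, n = 3) in SNB19 and 446 ± 59.9 (SD, n = 2) in U87. The next in SNB19 were SQSTM1 at 141 ± 5.38, CD63 at 111 ± 2.65 and GRN at 102 ± 5.93 FPKM, and in U87 CD63 at 441 ± 183, GRN at 137 ± 34.3 and LAMP1 at 71.9 ± 12.6 FPKM. In U87 the SD of CD63 was large enough that its level could not be placed apart from that of PSAP. The 2 lowest genes in both lines were GALC and CLN3, each under 0.5 FPKM. CLN3 shares 30.9% of its exonic bases with neighbouring genes (25.2% on the same strand), so its counts are uncertain.

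**Figure D1:**
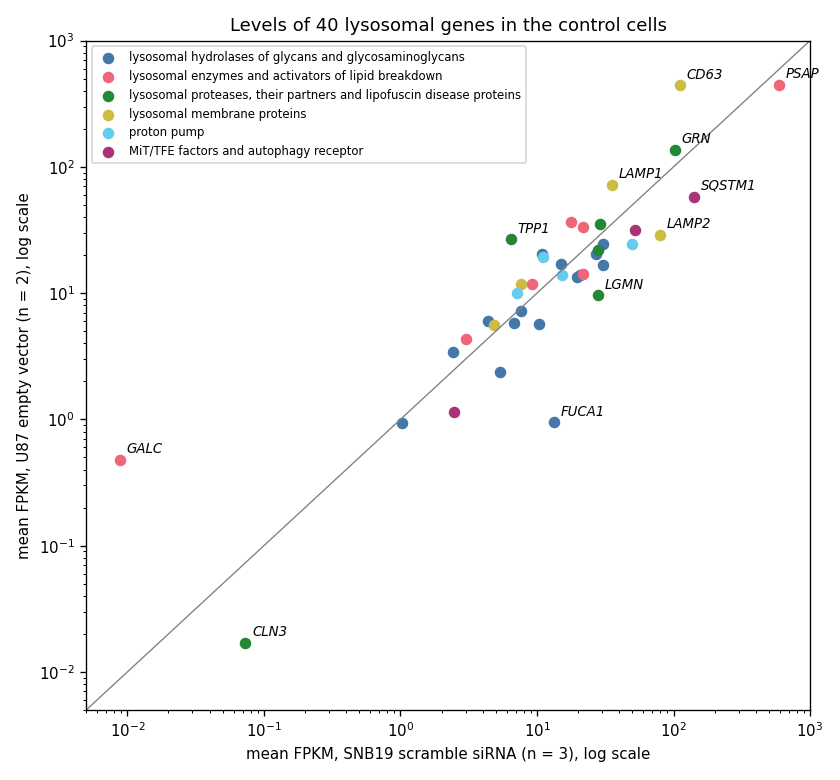
Mean FPKM of the 40 lysosomal genes in scramble siRNA SNB19 cells (horizontal, n = 3) and empty vector U87 cells (vertical, n = 2), both on log scales, coloured by role. PSAP is at the top right at 595 and 446 FPKM, FUCA1 lies far below the diagonal of equal levels and GALC far above it, and both GALC and CLN3 are under 0.5 FPKM in both lines.

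The control populations differed in 26 of the 40 genes (65% beside 56.4% of all genes tested), of which 8 were higher in SNB19 and 18 in U87 (27.9% and 28.6% of all genes tested). Without U87 empty vector replicate 1 it was 11 and 19 (63.5% of all genes called) and without replicate 2 it was 10 and 20 (73.7%). The balance of directions depended on the scaling: with library totals alone 13 were higher in each line (53.1% of all genes called), and the median log2 difference of the 40, SNB19 minus U87, went from -0.21 to 0.12 as that of all genes went from 0.03 to 0.37. This comparison sets scramble-transfected SNB19 against vector-carrying U87, and the line and its handling cannot be told apart. FUCA1, the lysosomal fucosidase, had 24.0, 27.5 and 25.8 CPM in scramble SNB19 and 1.69 and 2.84 CPM in empty vector U87. Its groups were far apart, and the log2 difference, SNB19 minus U87, was 3.49 ± 0.24 (adjusted p = 4.11e-06, edgeR). Also higher in SNB19 were LAMP2 by 1.18, the protease LGMN by 1.13, SQSTM1 by 0.99, the sulfatase ARSB by 0.89 and TFEB by 0.71 on the log2 scale. TFEB did not pass when U87 empty vector replicate 2, MEOX2 siRNA replicate 1 or any 1 of the scramble samples was left out, and SQSTM1 and ARSB were 0.60 and 0.51 without empty vector replicate 1.

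GALC, which degrades the myelin lipid galactosylceramide, gave 3 counts in all over the scramble samples and 96 over the empty vector samples. The ratio of normalised levels was 62.8, with an exact 95% interval of 20.8 to 310 that covers counting error only. TPP1, a lysosomal tripeptidase, was at 41.4, 39.3 and 38.9 CPM in scramble SNB19 and at 207 and 217 CPM in empty vector U87, which agreed closely with each other, and its log2 difference was -2.41 ± 0.12 (adjusted p = 5.43e-07, edgeR). CD63, a tetraspanin of late endosomes and exosomes, was at 279, 285 and 269 CPM in SNB19 and at 2165 and 862 CPM in U87. The U87 samples of CD63 differed widely from each other, and both were above all SNB19 samples. Its log2 difference was -2.45 ± 0.31, and -1.64 without U87 empty vector replicate 1. NAGLU, a hydrolase of heparan sulfate, was at 28.1, 33.6 and 32.0 CPM in SNB19 and at 112 and 47.0 CPM in U87. Its difference of -1.35 ± 0.30 was -0.60 without that sample, and that of SMPD1 went from -1.47 ± 0.23 to -0.97, while LAMP1 stayed near its value (-1.38 ± 0.12 and -1.34). All 5 membrane proteins of the list passed over all samples. LAMP2 was higher in SNB19, and LAMP1, CD63, SCARB2 and MCOLN1 were higher in U87. MCOLN1 did not pass without empty vector replicate 2, scramble replicate 2 or scramble replicate 3. Nor did it pass with library totals alone or without the filter on low counts. The log2 differences of PSAP (0.04 ± 0.15, adjusted p = 0.808) and TFE3 (0.42 ± 0.17, adjusted p = 0.0681) did not pass the test, whereas GRN, which encodes progranulin, was lower in SNB19 (-0.85 ± 0.24, adjusted p = 0.0139) and had a difference of -0.29 without empty vector replicate 1.

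Knockdown of MEOX2 in SNB19 lowered 7 lysosomal genes and raised 2. The 7 that fell were IDUA, IDS, ARSB and NEU1, which act on sugar chains, PSAP and ASAH1, which serve sphingolipid breakdown, and CTSA, the protective protein that forms a complex with NEU1. SGSH and PPT1 rose. Together 9 of 40 genes (22.5%) passed the test, beside 15.1% of all genes tested (6.74% higher and 8.40% lower), and the median log2 fold change of the 40 was -0.22 where that of all genes tested was 0.00. In 26 of the 40 the values of the groups did not overlap, 20 of them lower and 6 higher in MEOX2 siRNA samples, which is 65% beside 57.0% of all genes tested (29.4% lower and 27.6% higher).

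**Figure D2:**
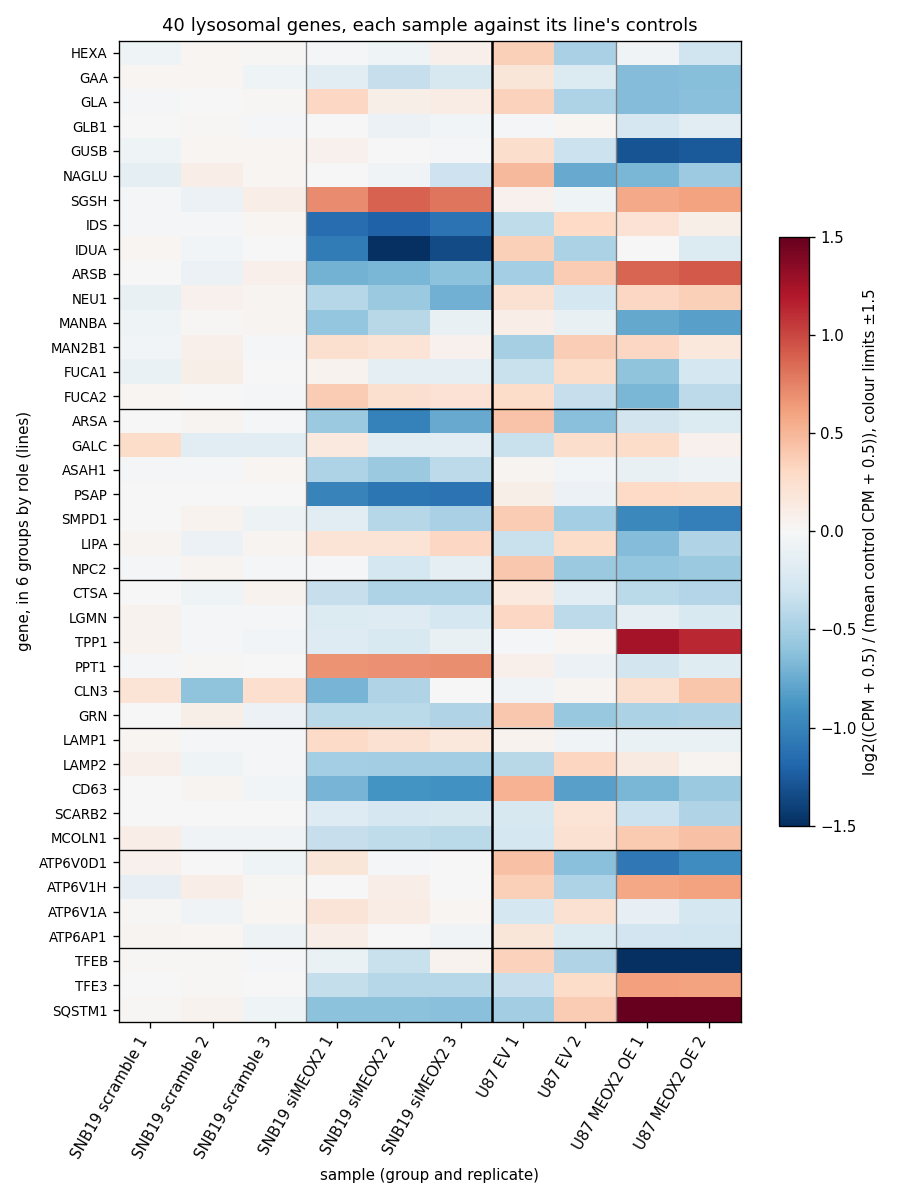
Each of the 40 lysosomal genes (rows, grouped by role) in each of the 10 samples (columns) as the log2 ratio of its normalised CPM, with 0.5 added, to the mean of its line's control samples; colours are limited to 1.5 in either direction. The 3 MEOX2 siRNA columns resemble each other, with IDUA, IDS and PSAP lowest and SGSH and PPT1 highest, whereas the U87 EV columns differ from each other in many rows.

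PSAP had 1819, 1840.2 and 1829.5 CPM in the scramble samples and 916, 859 and 849 CPM after knockdown. The 3 values of each group lay close together and every knockdown sample was far below every control, which made PSAP 2.09-fold lower (log2 fold change -1.06 ± 0.13 SE, adjusted p = 0.00139, edgeR). ASAH1, acid ceramidase, was at 43.3, 43.3 and 44.7 CPM and then at 31.5, 29.7 and 33.3 CPM. Its groups also lay apart, by less (-0.48 ± 0.10, adjusted p = 0.0158, edgeR). ARSA, the sulfatase that works with saposin B, was at 25.2 to 26.6 CPM in scramble and 12.6 to 17.4 CPM in MEOX2 siRNA samples, with no overlap, but did not pass (-0.78 ± 0.25, adjusted p = 0.0636). The remaining lipid genes, SMPD1, LIPA, NPC2 and GALC, had log2 fold changes between -0.53 and 0.24 that did not pass.

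IDS, the iduronate sulfatase that takes sulfate off heparan and dermatan sulfate, had 181, 182 and 186 CPM in the scramble samples and 82.6, 78.8 and 84.4 CPM after knockdown. It was 2.23-fold lower with no overlap (-1.16 ± 0.17, adjusted p = 0.00277, edgeR). A share of 17.4% of its exonic bases is also part of another gene model on the same strand. IDUA, the iduronidase that acts next in that breakdown, fell from 26.4, 25.1 and 25.8 CPM to 12.2, 8.70 and 9.84 CPM. This was the lowest log2 fold change of the 40 genes (-1.33 ± 0.22, adjusted p = 0.00487, edgeR), and 13.3% of its exonic bases overlap SLC26A1 on the other strand. ARSB, which removes sulfate from dermatan sulfate, was at 46.4, 43.3 and 48.5 CPM in scramble samples and 27.9, 28.4 and 29.9 CPM in MEOX2 siRNA samples. ARSB passed the test narrowly (-0.68 ± 0.20, adjusted p = 0.0489, edgeR), as did NEU1, a sialidase, with 83.8, 94.6 and 93.2 CPM before and 67.3, 61.6 and 54.8 CPM after knockdown (-0.56 ± 0.15, adjusted p = 0.0365). CTSA was 1.34-fold lower (-0.42 ± 0.12, adjusted p = 0.0441), and 28.5% of its exonic bases overlap other genes on the opposite strand.

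SGSH, the sulfamidase of heparan sulfate, went the other way, from 27.7, 26.3 and 29.997 CPM to 46.1, 52.0 and 49.1 CPM. Every MEOX2 siRNA sample was above every scramble sample, and SGSH was 1.75-fold higher (0.81 ± 0.11, adjusted p = 0.00222, edgeR). PPT1, a palmitoyl thioesterase lost in infantile neuronal ceroid lipofuscinosis, was at 134, 137 and 135 CPM in scramble samples and at 217, 219 and 219 CPM after knockdown. Its samples were nearly alike within each group, giving a 1.61-fold higher level (0.69 ± 0.10, adjusted p = 0.00322, edgeR), and 23.4% of its exonic bases overlap CAP1 on the other strand. The direction of change therefore differed within the enzymes of heparan sulfate breakdown: IDS and IDUA fell, SGSH rose, and NAGLU and GUSB had log2 fold changes of -0.12 and 0.02 that did not pass.

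None of the 5 membrane proteins passed in this fit. An unadjusted p under 0.05 was reached by 3 of them and by 5143 of the 17312 genes tested. The Wald test of DESeq2 called 3 of them, and 22.5% of all genes. CD63 had 279, 285 and 269 CPM in the scramble samples and 172, 149 and 148 CPM in the MEOX2 siRNA samples (-0.83 ± 0.28, adjusted p = 0.0802). LAMP2 had 443, 403 and 417 CPM and then 296, 294 and 294 CPM (-0.52 ± 0.18, adjusted p = 0.0821). LAMP1, its close relative, had 198, 190.0 and 191 CPM and then 236, 226 and 215 CPM (0.22 ± 0.11, adjusted p = 0.206), so that the siRNA samples were below all controls for LAMP2 and above all controls for LAMP1. GRN was at 356, 381 and 337 CPM and at 270.5, 270.3 and 261 CPM (-0.42 ± 0.22, adjusted p = 0.233). The 4 proton pump genes had log2 fold changes of 0.02 to 0.11, none called by edgeR or DESeq2 and none at an unadjusted p under 0.05. None of the 3 genes of transcription and autophagy passed. Beside the same shares of all genes, 2 had an unadjusted p under 0.05 and 1 was called by DESeq2. SQSTM1, the autophagy receptor p62, was at 1036, 1064 and 977 CPM in scramble and 672, 669 and 662 CPM in MEOX2 siRNA samples (-0.62 ± 0.21, adjusted p = 0.0835). TFE3 was at 209.9, 213 and 209.9 CPM and then 164, 156 and 157 CPM (-0.41 ± 0.15, adjusted p = 0.113), and TFEB at 13.5, 13.4 and 13.0 CPM and then 12.3, 10.4 and 13.8 CPM (-0.13 ± 0.21, adjusted p = 0.755). The groups lay apart for SQSTM1 and TFE3 and overlapped for TFEB.

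The count of called genes in SNB19 depended on the spread assumed. The fit over all 10 samples shares 1 estimate of the spread between the lines, and its common biological coefficient of variation was 0.216, where SNB19 alone had 0.0551 and U87 alone 0.369. Fitted alone, SNB19 called 27 of the 39 lysosomal genes it tested (69.2% beside 56.0% of all genes), 20 lower and 7 higher. Those lower then included ARSA, CD63, LAMP2, GRN, SQSTM1 and TFE3, and those higher included LAMP1, GLA, FUCA2, LIPA and MAN2B1, while TFEB (adjusted p = 0.420) and the proton pump genes again did not pass. Leaving out U87 empty vector replicate 1 gave the same counts of 20 lower and 7 higher of 40, beside 47.2% of all genes, and leaving out replicate 2 did too, beside 47.4%. The 9 genes called over all samples did not all hold elsewhere. IDUA, IDS, PSAP, SGSH and PPT1 passed when any 1 sample was left out, but ARSB, ASAH1, CTSA and NEU1 failed whichever SNB19 sample was left out, and ASAH1 and CTSA did not pass with an offset for gene length.

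**Figure D3:**
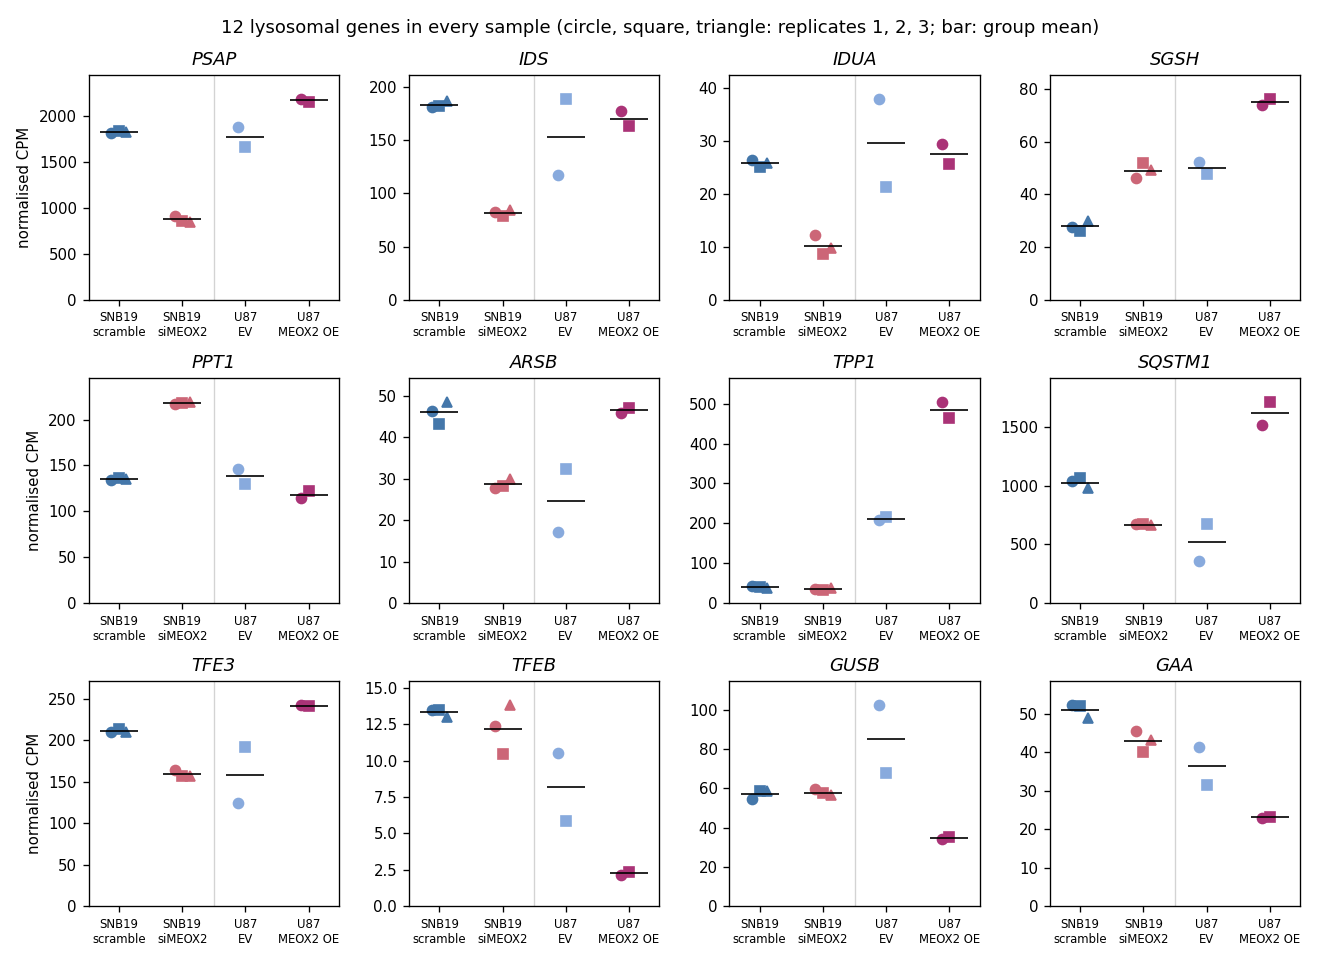
Normalised CPM (linear axis from 0) of 12 lysosomal genes in each sample, with the mean of each group as a bar and the replicate shown by the point's shape. In SNB19 the groups do not overlap for PSAP, IDS, IDUA, SGSH, PPT1, ARSB, TPP1, SQSTM1, TFE3 or GAA, and in U87 the groups of IDS and IDUA overlap while those of TPP1, SQSTM1, TFEB and GUSB do not.

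With overexpression of MEOX2 in U87, SQSTM1, TPP1, ARSB, TFE3 and SGSH rose, and TFEB, GUSB, ATP6V0D1, SMPD1, MANBA and GAA fell. These 11 of 40 genes (27.5%) stand beside 25.3% of all genes tested (10.9% higher and 14.4% lower), so the share was close to the background. The median log2 fold change of the 40 was -0.20 where that of all genes tested was -0.02, and the groups did not overlap for 27 of the 40 (10 higher and 17 lower), 67.5% beside 52.8% of all genes (26.8% higher and 26.0% lower). These calls rest on the spread shared with SNB19: fitted alone with edgeR, U87 called 0 of 14180 genes, although 2503 had an unadjusted p under 0.05. Among them were 5 of the 39 lysosomal genes tested in that fit, a smaller share than that of all genes.

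SQSTM1 had 358 and 674 CPM in the empty vector samples and 1520.1 and 1713 CPM in the overexpressing samples. The controls differed from each other, and both overexpressing samples were above them (3.13-fold, log2 fold change 1.65 ± 0.27, adjusted p = 0.00303, edgeR). Against replicate 2 of the controls alone the log2 fold change was 1.305, and against replicate 1 alone 2.21, and 22.0% of the exonic bases of SQSTM1 overlap MRNIP and another gene on the opposite strand. TPP1 rose from 207 and 217 CPM to 504 and 463 CPM. Its controls agreed, and the 2.28-fold change (1.19 ± 0.13, adjusted p = 0.000419, edgeR) was 1.198 on the log2 scale against replicate 2 alone and 1.256 against replicate 1 alone. TFE3 had 124 and 192 CPM in controls and 242 and 241 CPM with MEOX2 (0.61 ± 0.19, adjusted p = 0.0438, edgeR). Against replicate 2 alone its log2 fold change was 0.37. TFE3 did not pass whichever SNB19 sample was left out, without the filter on low counts or with either replicate block.

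TFEB, the relative of TFE3, went down from 10.5 and 5.83 CPM to 2.15 and 2.38 CPM. The overexpressing samples agreed and were below both controls, which differed from each other (3.58-fold lower, log2 fold change -1.84 ± 0.30, adjusted p = 0.00294, edgeR). Against replicate 2 alone the log2 fold change was -1.31 and against replicate 1 alone -2.17. Over all samples the related factors thus passed in opposite directions, TFE3 narrowly and not under several alternatives. On the per-length scale TFE3 was far the more abundant, with 31.4 ± 15.9 FPKM against 1.14 ± 0.22 for TFEB in the controls (SD, n = 2). In the overexpressing samples TFE3 had 53.9 ± 0.750 FPKM against 0.383 ± 0.0225 for TFEB (SD, n = 2).

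Among the hydrolases, GUSB, the glucuronidase of glycosaminoglycan breakdown, was at 102 and 67.8 CPM in controls and 34.5 and 35.3 CPM with MEOX2. It was 2.44-fold lower (-1.29 ± 0.19, adjusted p = 0.0019, edgeR) with the groups apart. MANBA, a mannosidase, fell from 53.1 and 45.7 CPM to 28.8 and 27.8 CPM (-0.80 ± 0.18, adjusted p = 0.0119), and GAA, which degrades glycogen in lysosomes, from 41.3 and 31.6 CPM to 23.0 and 23.3 CPM (-0.65 ± 0.16, adjusted p = 0.0175). ARSB rose from 17.2 and 32.3 CPM to 45.9 and 47.2 CPM (0.91 ± 0.25, adjusted p = 0.0268), and SGSH from 52.2 and 47.6 CPM to 74.1 and 76.2 CPM (0.59 ± 0.14, adjusted p = 0.0142). In each of these genes both overexpressing samples lay outside the controls, and the controls of SGSH agreed best.

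SMPD1, acid sphingomyelinase, had 167 and 90.2 CPM in controls and 65.4 and 62.9 CPM with MEOX2 (-1.001 ± 0.26, adjusted p = 0.0217, edgeR). ATP6V0D1, a subunit of the membrane sector of the proton pump, had 278 and 133 CPM and then 97.9 and 108 CPM (-1.001 ± 0.28, adjusted p = 0.0322). For both, the control that stood apart was the higher one, and against replicate 2 alone the log2 fold changes shrank to -0.45 and -0.33. ATP6V0D1 did not pass whichever SNB19 sample was left out. PSAP was at 1884 and 1663 CPM in controls and at 2185 and 2154 CPM with MEOX2 (0.29 ± 0.16, adjusted p = 0.203), LAMP1 at 521 and 487 and then 469 and 469.9 CPM (-0.10 ± 0.13, adjusted p = 0.588), and GRN at 853 and 435 and then 461 and 469.8 CPM (-0.47 ± 0.26, adjusted p = 0.215). The overexpressing values of GRN lay between those of the controls, as they did for IDS, IDUA, CD63 and NAGLU, so these genes have no direction in U87. None of the 5 membrane proteins passed by edgeR or DESeq2, which called 34.0% of all genes by DESeq2. An unadjusted p under 0.05 was reached by 2 of them and by 7044 of the 17312 genes tested (edgeR).

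Without empty vector replicate 1, 11 lysosomal genes were higher and 10 lower (38.9% of all genes called), with a median of -0.03 over the 40. Without replicate 2, 11 were higher and 19 lower (59.5% of all genes called). The 11 genes called with both controls were called in the same direction with either one left out, where the lone control was assumed to vary as much as the other groups. Whichever overexpressing sample was left out, only SQSTM1, TPP1, GUSB and TFEB passed, and ARSB, GAA, MANBA and TFE3 did not pass with library totals alone.

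**Figure D4:**
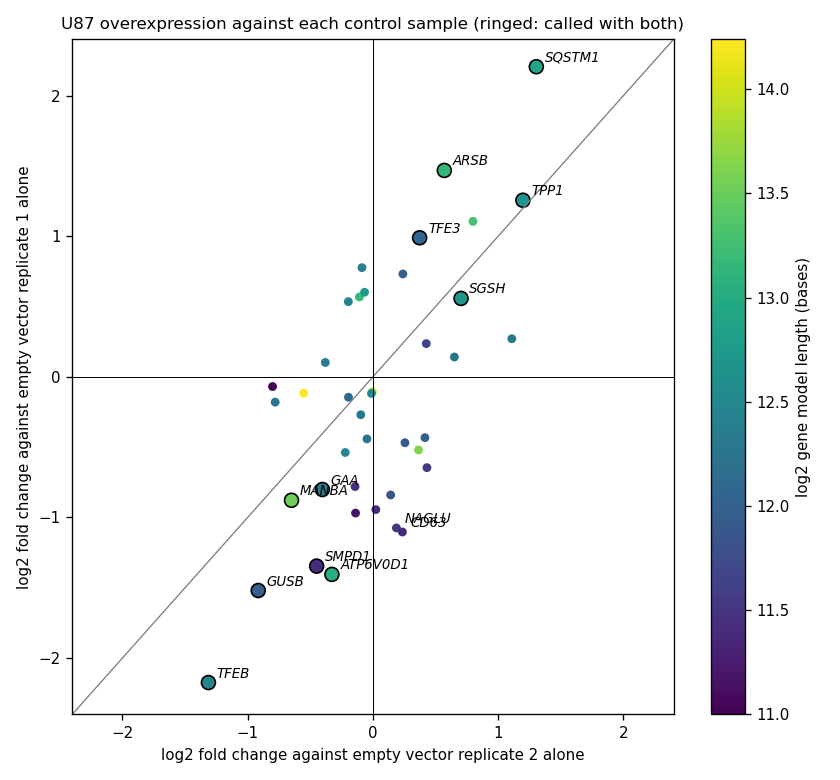
Log2 fold change of the 40 lysosomal genes in MEOX2-overexpressing U87 cells (n = 2) against empty vector replicate 2 alone (horizontal) and replicate 1 alone (vertical), coloured by gene model length, with the 11 genes called against both controls ringed and named. The ringed genes are below 0 on both axes or above 0 on both, TPP1 and SGSH lie near the diagonal of equal values, and CD63 and NAGLU are above 0 on one axis and below -1 on the other.

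The promoters of the lysosomal genes were searched for the E-box that TFEB and TFE3 recognise. Both factors had passed the test in U87 over all samples, TFE3 narrowly. Of the 40 genes, 29 had an entry in the RefSeq promoter table (GRCh38.p14, 250 bases before to 50 after the gene start). CACGTG was in 8 of the 29 (27.6%), beside 8.83% of 15784 promoters of genes in the count table and 7.43% of all 27305 promoters. The longer TCACGTG, counted on both strands and overlapping the core, was in 7 of 29 (24.1%), beside 4.80% and 3.82%. The homeobox core TAATTA, searched on both strands, was in 0 of 29, beside 3.26% and 4.98%. With shares this low, 0 of 29 is no sign of a lack. A match is a description of letters and not of binding. The 8 with the core were GAA, NEU1, CTSA, CLN3, LAMP1, CD63, MCOLN1 and ATP6V0D1. The stretches below lie before the gene start and outside annotated exons of the gene. They are shown 5′ to 3′ on the gene's strand, with CACGTG in capitals. Those with several such cores are from GAA (chr17:80101496-80101555, plus strand), LAMP1 (chr13:113297040-113297109, plus strand) and MCOLN1 (chr19:7522565-7522623, plus strand). NEU1 (chr6:31862910-31862979, minus strand) is shown because it fell on knockdown. CTSA and CLN3 carry 2 cores each that are not shown, since these do not lie wholly within such bases.
GAA: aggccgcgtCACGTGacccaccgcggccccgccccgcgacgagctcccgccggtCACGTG
LAMP1: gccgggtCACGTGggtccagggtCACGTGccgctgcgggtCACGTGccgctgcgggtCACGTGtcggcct
MCOLN1: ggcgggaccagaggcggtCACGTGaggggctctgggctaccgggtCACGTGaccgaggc
NEU1: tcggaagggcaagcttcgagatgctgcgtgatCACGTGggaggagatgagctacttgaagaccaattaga

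The genes that carry this E-box did not move as 1 block. In U87, where TFEB fell and TFE3 narrowly passed as higher, GAA and ATP6V0D1 fell. LAMP1, with 6 cores in its window, had a log2 fold change of -0.10. That of MCOLN1, the calcium channel of the lysosomal membrane, was 0.42 (adjusted p = 0.104, edgeR). NEU1 had 0.34 (adjusted p = 0.203), CTSA -0.42 (adjusted p = 0.059) and CD63 -0.62 (adjusted p = 0.206). CLN3, whose counts are uncertain, had 0.89 (adjusted p = 0.461). In SNB19, where neither factor passed the test over all samples, NEU1 and CTSA fell. The log2 fold changes of the other 6 did not pass over all samples, at -0.83 for CD63 (adjusted p = 0.0802), -0.69 for CLN3 (0.438), -0.39 for MCOLN1 (0.108), -0.25 for GAA (0.228), 0.06 for ATP6V0D1 (0.909) and 0.22 for LAMP1 (0.206). Fitted alone, SNB19 also called CD63, MCOLN1, GAA and TFE3 lower and LAMP1 higher. That fit called 56.0% of all genes, and neither ATP6V0D1 nor CLN3 was among them.

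In the fit over all samples ARSB and SGSH passed in both lines, 2 of the 40 genes, beside 5.72% of all genes tested. They were among the 9 called in SNB19 and the 11 called in U87. Of all genes tested, 991 passed in both, from 2622 called in SNB19 and 4375 in U87. ARSB fell with less MEOX2 in SNB19 (-0.68) and rose with more MEOX2 in U87 (0.91), whereas SGSH rose in both (0.81 and 0.59). The number shared followed the spread assumed: without U87 empty vector replicate 1, 16 passed in both (22.7% of all genes), 10 of them in opposite directions, and SNB19 fitted alone called 8 of the 11 genes called in U87. SNB19 alone called 69.2% of the lysosomal genes it tested and 56.0% of all genes, so 8 of 11 shows no clear excess. Of these 8, 4 changed in opposite directions in the lines (ARSB, SQSTM1, TFE3 and TPP1) and 4 in the same direction. The splits by direction were not set against all genes. In 7 of the 40 genes the knockdown samples lay below all controls and the overexpressing samples above both, namely ARSB, NEU1, PSAP, TPP1, MCOLN1, TFE3 and SQSTM1, beside 6.43% of all genes tested. In 5 the order was the reverse (GLA, FUCA2, LIPA, PPT1 and LAMP1, beside 5.54%). In 6 both changes lay downward (GAA, MANBA, ASAH1, SMPD1, CTSA and SCARB2, beside 10.2%), and SGSH was the only one of the 40 above in both, beside 9.0%.

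**Figure D5:**
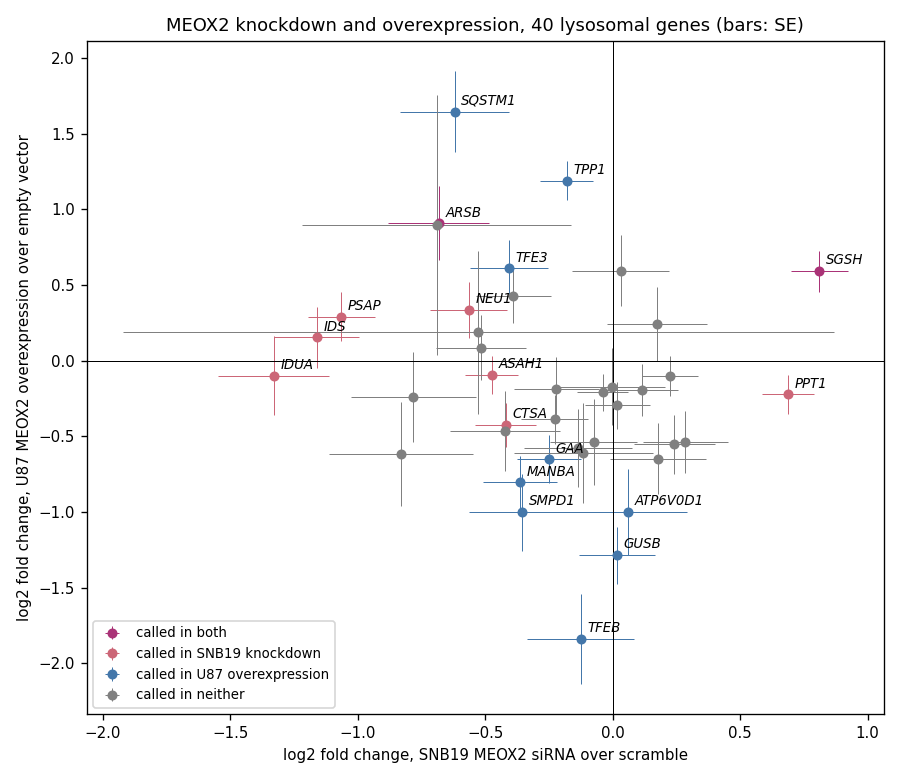
Log2 fold change of the 40 lysosomal genes on MEOX2 knockdown in SNB19 (horizontal) against that on MEOX2 overexpression in U87 (vertical), with SE as bars and colour by the comparison in which the gene passed the test. ARSB is below 0 on the horizontal axis and above 0 on the vertical one, SGSH is above 0 on both, IDS, IDUA and PSAP lie to the left near 0 on the vertical axis, and TFEB and GUSB lie at the bottom near 0 on the horizontal axis.

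The difference between the lines was tested directly, as the change from low to high MEOX2 in SNB19 (scramble minus MEOX2 siRNA) minus that in U87 (overexpression minus empty vector). It passed for 13 of the 40 genes (32.5% beside 23.8% of all genes tested), with 11 values above 0 and 2 below (13.8% and 9.94% of all genes). TFEB had the largest, 1.97 ± 0.36 (adjusted p = 0.00508, edgeR), made of 0.13 in SNB19 and -1.84 in U87. For CD63 the difference was 1.45 ± 0.44 (adjusted p = 0.0439), for IDUA 1.43 ± 0.34 (adjusted p = 0.0165) and for SMPD1 1.36 ± 0.33 (adjusted p = 0.0177). GUSB differed by 1.27 ± 0.24 (adjusted p = 0.00569), its SNB19 part being -0.02. SGSH had a negative difference of -1.40 ± 0.18 (adjusted p = 0.000745), made of -0.81 in SNB19 and 0.59 in U87. All 13 passed with the same sign when either empty vector sample was left out, but the sizes moved, CD63 being 0.59 without replicate 1 and 1.92 without replicate 2. Whichever overexpressing sample was left out, only TFEB, GUSB, MANBA, SGSH and TPP1 passed, and ASAH1, CD63, IDS and PSAP failed whichever SNB19 sample was left out. With library totals alone 7 of the 13 passed. The difference did not pass for SQSTM1 (-1.03 ± 0.34, adjusted p = 0.0548), TFE3 (-0.20 ± 0.24, adjusted p = 0.577), GRN (0.89 ± 0.34, adjusted p = 0.0896) or LAMP1 (-0.12 ± 0.17, adjusted p = 0.645).

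Other genes of the lysosomal pathway were counted from fixed lists. Over all samples, the share to read them against was 15.1% of all genes called on knockdown (6.74% higher and 8.40% lower). It was 25.3% on overexpression (10.9% higher and 14.4% lower). DESeq2 called 22.5% of all genes on knockdown and 34.0% on overexpression. An unadjusted p under 0.05 was reached by 5143 and 7044 of the 17312 genes tested. Without 1 empty vector sample more of all genes were called than over all samples. Counts from those fits therefore cannot be read against the shares given here. Of 24 other lysosomal enzymes and cofactors, 4 fell on knockdown (16.7% called), with HGSNAT, a transferase of heparan sulfate breakdown, at -0.85 and the sulfatase GALNS at -0.65 on the log2 scale. In U87, 5 fell, with the GM2 activator GM2A at -1.40 and the phospholipase PLA2G15 at -0.95, which was -0.51 without empty vector replicate 1. The number that fell was 8 without that sample and 10 without replicate 2. Of 20 other membrane proteins tested, 2 rose and 2 fell on knockdown (SLC17A5, a sialic acid exporter, 0.58, TMEM192 0.52, ABCB9 -0.64 and LAPTM4A -0.46), and 6 rose and 6 fell on overexpression (60% called), with the cystine exporter CTNS at 0.96 and the ion channel TMEM175 at -1.74. TMEM175 was at -1.006 without empty vector replicate 1, and the counts became 8 and 7 without that sample and 12 and 6 without replicate 2.

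Of 13 other V-ATPase subunits, 1 rose and 1 fell on knockdown, ATP6V0A1 by 0.73 and TCIRG1 at -0.74, which are alternative forms of the same membrane subunit. On overexpression 3 rose and 3 fell, ATP6V1B2 by 1.94 ± 0.13 (adjusted p = 6.07e-05, edgeR) and TCIRG1 again lower at -1.74 ± 0.22 (adjusted p = 0.000954). The balance of the V-ATPase counts rested on the control: 10 rose and 2 fell without empty vector replicate 1, and 4 rose and 7 fell without replicate 2. None of the 12 genes of mannose 6-phosphate tagging and sorting passed on knockdown, with 3 at an unadjusted p under 0.05 and 3 called by DESeq2. In U87, 1 rose and 2 fell, the sorting receptor SORT1 at -1.42 and NAGPA, which uncovers the mannose 6-phosphate tag, at -1.01. NAGPA did not pass without empty vector replicate 1 (-0.45, adjusted p = 0.0702), and the counts became 5 and 1 without that sample and 7 and 4 without replicate 2.

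Among 21 tested relatives of TFEB and TFE3 and regulators of mTORC1 at the lysosome, MITF, another member of their family, rose by 0.70 ± 0.13 (adjusted p = 0.00785, edgeR) on knockdown, and the GTPase RRAGA fell by 0.93 on the log2 scale (SE 0.11, adjusted p = 0.000965). In U87, 6 rose and 2 fell, with the folliculin partners FNIP2 at 1.61 and FNIP1 at 1.29, GPNMB at -0.53 and LAMTOR5 at -1.56. LAMTOR5 did not pass without empty vector replicate 1 (-0.16, adjusted p = 0.378), where the counts were 12 and 2, and they were 8 and 6 without replicate 2. Of 20 autophagy receptors and machinery genes, 7 rose and 0 fell on overexpression (9 and 0 by DESeq2, and 9 and 1 at an unadjusted p under 0.05), with the ATG8 family member GABARAPL1 at 1.66 and WIPI1 at 1.25, which was 0.82 without empty vector replicate 1. On knockdown 2 of them fell, VPS11 at -1.02 and GABARAPL1 at -0.43. Without empty vector replicate 1 the autophagy counts in U87 became 13 and 1, and without replicate 2 they became 13 and 4.

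Of 12 cathepsins and related genes, 3 fell on knockdown, and 1 rose and 2 fell on overexpression, which became 2 and 3 without empty vector replicate 1 and 1 and 7 without replicate 2. Cathepsin S (CTSS) was the one that moved furthest in both, from 28.6, 23.9 and 28.3 CPM to 5.51, 5.30 and 4.39 CPM in SNB19 (-2.41 ± 0.14, adjusted p = 7.2e-05, edgeR) and from 36.7 and 36.6 CPM to 156 and 158 CPM in U87 (2.10 ± 0.16, adjusted p = 8.36e-05). Over all samples its size exceeded that of each of the 40 lysosomal genes in both comparisons, and its U87 controls agreed closely. Against empty vector replicate 1 alone, SQSTM1 (2.21) and TFEB (-2.17) had log2 fold changes of a size near that of CTSS. The study picked CTSS from these same libraries by its changes in both lines. Its rank here is therefore no independent result.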

How the data were processed

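Poly-A RNA of SNB19 and U87 cells was sequenced with 150-base paired reads on a HiSeq 4000. The authors aligned the reads with HISAT2 to GRCh38 and counted them with HTSeq 0.11.2, according to the submitters' processing notes; the strand setting was not given in the sources used here. The deposited counts are whole numbers per gene, not normalized. The deposited FPKM values were reproduced from those counts, 1 length per gene and the table's total. All 34567 identifiers matched GENCODE 29.

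The counts were fitted here with edgeR 4.0.16 (R 4.3.3), glmQLFit with robust estimation and glmQLFTest, TMM scaling and filterByExpr (minimum count 10), as 1 model of 4 groups over 10 samples. P-values are two-sided and adjusted by Benjamini-Hochberg over 17312 genes, with 0.05 as the threshold; "called" and "passed" mean below it. The fit was run on simulated counts in which both lines had the same spread per gene. That run cannot test how the fit handles the unequal spread of SNB19 and U87. Nothing in the labels says that the replicates came from separate cultures, so p-values measure only the spread between these samples, which may be technical. The treatment labels of 3 U87 samples give another number after MEOX; groups follow the titles. In bulk samples, fewer cells of a kind and less RNA per cell cannot be told apart.

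Alternatives were DESeq2 1.42.0, other scalings, no filter, each line alone, a replicate block and leaving out each sample; a gene length offset, U87 alone without empty vector replicate 1 and a block with crossed U87 numbers were added after seeing the data. Full statistics went to called genes, at most 6 in each direction, and always to TFEB, TFE3, SQSTM1, LAMP1, PSAP and GRN; of other lists the 2 with the largest change in each direction were eligible to be named. The statistics of ARSA, CD63, LAMP2 and CTSA on knockdown and of the genes with an E-box were added after their values were seen. The lysosomal genes and lists were chosen with earlier results of these data known.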

Additional observations from a re-analysis of the deposited data

Results flagged for a closer look

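For 13 lysosomal genes the change from low to high MEOX2 differed between SNB19 and U87 by a direct test of the difference in the edgeR fit (SNB19 minus U87, log2 scale, adjusted p under 0.05). The 11 positive differences were 1.97 for TFEB, 1.45 for CD63, 1.43 for IDUA, 1.36 for SMPD1, 1.27 for GUSB, 1.17 for MANBA, 1.01 for IDS, 0.90 for GAA, 0.85 for CTSA, 0.77 for PSAP and 0.57 for ASAH1. The 2 negative ones were -1.01 for TPP1 and -1.40 for SGSH. For PSAP the MEOX2 change was 1.06 in SNB19 and 0.29 in U87, where it did not pass by itself, and for TPP1 it was 1.19 in U87 and 0.18 in SNB19, where it did not pass. For IDS it was 1.16 in SNB19, and it had no direction in U87, where the overexpressing values lay between the controls. Without 1 of the overexpressing samples 5 of the 13 passed. The line, the way MEOX2 was changed and its duration cannot be told apart.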

How the results depend on the processing

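The counts rested on the spread assumed. For knockdown, 9 lysosomal genes were called over all samples, 14 with DESeq2, 27 with SNB19 fitted alone and 5 with the replicate block, whether U87 numbers were kept or crossed. Over all genes the knockdown count of 2622 became 8687 alone, 861 with the block and 1655 with the crossed block. For overexpression, the 11 lysosomal genes became 0 alone, 5 with the block and 21 in U87 alone without empty vector replicate 1, and the 4375 genes became 0, 1908 and 7052. For the difference between the lines, 13 became 6 and 4112 became 2068 with the block. The pathway lists together gave 17 for knockdown, 45 for overexpression and 44 for the difference. For knockdown this became 29 with DESeq2, 75 alone, 4 with the block and 10 with the crossed block, for overexpression 0 alone, 24 with the block and 77 in U87 alone without empty vector replicate 1, and for the difference 22 with the block. MEOX2 in U87 alone had a log2 fold change of 15.3 that did not pass (adjusted p = 0.141).

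Whether replicate numbers pair the samples was not settled. Same-numbered SNB19 samples had correlations of 0.0693, 0.0122 and 0.0550 in their deviations from the group mean, and not every one was highest with its own number. In U87 the same-numbered value was -0.135. With 2 samples a group, the U87 values must all be of 1 size with either sign, so they cannot decide it.

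Leaving out 1 sample at a time gave 5 to 27 lysosomal genes for knockdown, 4 to 30 for overexpression, 22 to 30 between the control lines and 5 to 31 for the difference; over all genes 1065 to 8701, 1467 to 10932, 8100 to 13545 and 2129 to 10440; and over the pathway lists 6 to 71, 21 to 95, 63 to 110 and 21 to 96. The highest counts came from leaving out an empty vector sample of U87. MEOX2 was between -2.48 and -2.32 for knockdown. Its fitted values of 15.50 to 15.60 for overexpression are set by how the fit treats controls with 0 counts, so they are no measure of size or stability.

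Of 912 values of named lysosomal genes under the alternatives, 750 kept direction and side of the threshold, 36 gained it, 121 lost it and 5 turned direction, none of which was called over all samples: LAMP1 on overexpression (0.12 with library totals alone), GRN on overexpression (0.14 without empty vector replicate 1, -0.84 without replicate 2 and 0.094 in U87 alone without replicate 1), PSAP between the lines (-0.071 without empty vector replicate 2 and 0.13 without replicate 1) and TFE3 in the difference (0.030 without replicate 1 and -0.59 without replicate 2). The cause was not tested. With library totals alone the median of all genes shifted by over 0.1 between the control lines (0.37), for the difference (-0.25) and for overexpression (0.14).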

Other observations

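Beyond the 40 genes, single genes of the pathway lists differed between the control lines. Of the 12 genes of mannose 6-phosphate tagging and sorting, 2 passed over all samples (16.7% beside 56.4% of all genes tested). More of these 12 passed with either empty vector sample left out. The low share is therefore no sign that these genes are alike in the lines. SORT1, a receptor that carries prosaposin and progranulin, was higher in scramble SNB19 than in empty vector U87 by 4.80 ± 0.21 on the log2 scale (adjusted p = 4.51e-07, edgeR), SIAE, a sialic acid esterase, by 2.51 ± 0.18, and PPARGC1A, a coactivator of mitochondrial genes, by 2.05 ± 0.24. NPC1, the cholesterol exporter of the lysosomal membrane, was lower in SNB19 (-2.25 ± 0.39), as were SUMF1, which activates all sulfatases (-1.89 ± 0.13), and the autophagosome protein gene MAP1LC3B (-1.76 ± 0.19). Each passed again without empty vector replicate 1. The small pump subunit ATP6V1F was also lower in SNB19 (-2.43 ± 0.35) and was -1.48 without that sample, and LAMTOR4 went from -2.74 ± 0.56 to -0.91.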
